A study of Mus musculus with 4 samples.

Results

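The mitochondrial fatty acid oxidation genes were followed as a group of 10 in sarcomas of mice with a heterozygous p53 mutation, with or without arsenic trioxide (ATO). The members were chosen by symbol and are 10 of the 56691 genes in the deposited table. They comprise the carnitine shuttle (Cpt1a, Cpt1b, Cpt2 and Slc25a20), the straight-chain acyl-CoA dehydrogenases of very long, long and medium chains (Acadvl, Acadl and Acadm), both subunits of the trifunctional protein (Hadha and Hadhb), and the nuclear receptor Ppara. Tumor RNA was sequenced from 4 sarcomas that arose in p53R282W/+ mice of the C57BL/6N strain, a model of Li-Fraumeni syndrome in which every cell carries 1 mutant allele. The labels number this mutation by the human residue, which differs from the number the paper gives for the mouse allele. ATO-1 and ATO-2 came from mice that drank ATO from early adult life until death. PBS-1 and PBS-2 came from mice of the same genotype whose labels give PBS as the treatment. All 4 are labelled sarcoma tumor. The ages at death, the sites and the histology of the single tumors are not given in the sources used here, so that treatment and kind of sarcoma cannot be told apart.

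Fatty acids are burned in mitochondria. The CPT1 enzymes at the outer membrane join a long-chain fatty acid to carnitine, the carrier Slc25a20 moves it across the inner membrane, and CPT2 returns it to coenzyme A. Each round of beta oxidation then starts with a dehydrogenase and, for long chains, is completed by the trifunctional protein. Ppara is a receptor for fatty acids that switches on many of these genes. Cpt1a is the form found in liver and most tissues and Cpt1b the form of muscle and brown fat, and the pathway is most active in heart, oxidative muscle, liver and brown adipose tissue.

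Of the 10 genes, 9 had their highest level in ATO-2, and in each of these 9 ATO-2 lay at least 3-fold above every other sarcoma on TMM-normalized CPM (counts scaled to library size). Of all 17188 genes tested, 25.5% were highest in ATO-2 and 4.17% were at least 3-fold above the other 3 sarcomas there. ATO-1 lay above both PBS sarcomas in 8 of the 10 genes, against 34.5% of all genes. The same 8 genes had both ATO sarcomas above both PBS sarcomas, on TMM-normalized CPM against 19.7% of all genes and on FPKM (counts scaled to exon length and library total) against 12.8%. Both ATO sarcomas lay below both PBS sarcomas in 0 members on either scale, against 20.2% of all genes on TMM-normalized CPM and 29.6% on FPKM. Summed FPKM of the 10 genes was 296 in ATO-1, 1941 in ATO-2, 149 in PBS-1 and 140.3 in PBS-2. The exception was Cpt1a, with its highest level in PBS-1. ATO-2 also stood apart by its mitochondrial counts and its brown adipocyte markers, whose values follow, so the fold change of each member is given with and without it. In bulk tumor RNA, fewer cells of a type and less RNA per cell cannot be told apart.

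The total counts were 18134000 in ATO-1, 15259695 in ATO-2, 17465090 in PBS-1 and 17971675 in PBS-2. The 10 genes took 0.728% of the counts in ATO-2 (Wilson 95% interval 0.723% to 0.732%) and 0.109% in ATO-1 (0.107% to 0.110%). They took 0.0714% in PBS-1 (0.0701% to 0.0726%) and 0.0608% in PBS-2 (0.0597% to 0.0620%). Their share of ATO-2 thus stood well apart from the other 3 sarcomas, while these intervals cover counting error only. Depth was similar in all 4 libraries and every member had counts in each of them, the lowest being 5 counts of Ppara in PBS-2.

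**Figure D1:**
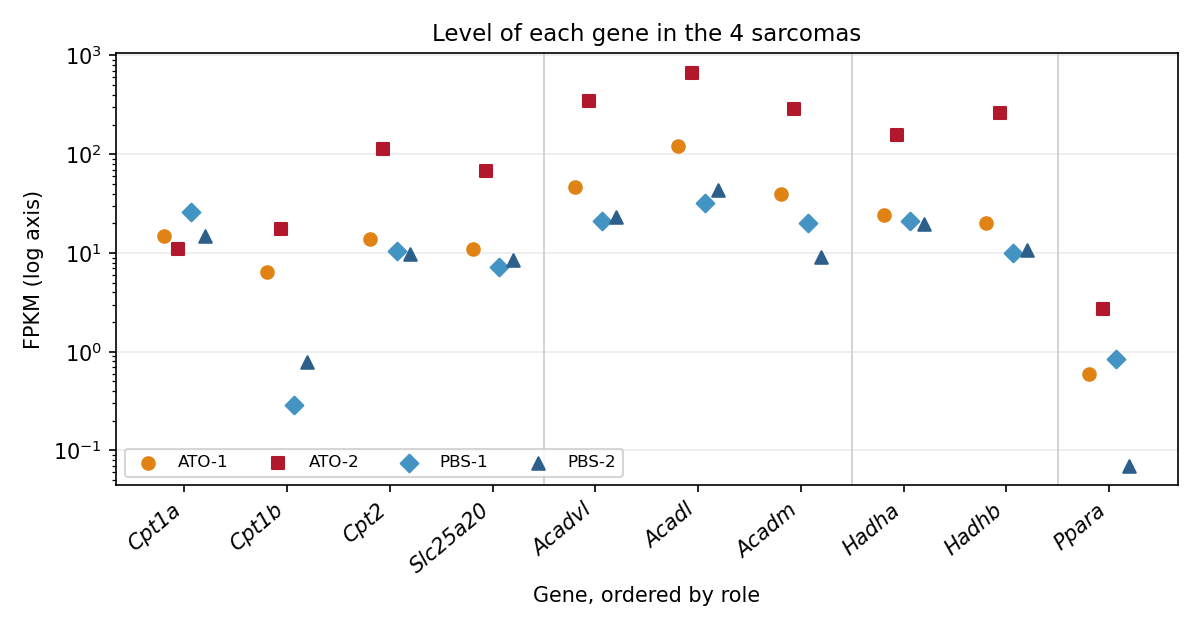
Level of each of the 10 genes in FPKM on a log axis, with 1 point for each sarcoma (ATO-1, ATO-2, PBS-1 and PBS-2) and vertical lines between the roles. ATO-2 is highest in every gene but Cpt1a, and Cpt1b separates the ATO and PBS sarcomas most widely.

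The shuttle starts with the CPT1 enzymes, the step at which malonyl-CoA holds back entry into the pathway. Cpt1a (chr19:3322334-3385733, GRCm38) had 14.9 FPKM in ATO-1, 11.04 in ATO-2, 26.3 in PBS-1 and 14.7 in PBS-2. PBS-1 was highest and ATO-2 lowest in FPKM, and the groups overlapped. The log2 fold change of Cpt1a, ATO against PBS, was -0.40 (SE 0.463, edgeR adjusted p = 0.834), -0.33 without ATO-2, 0.091 without PBS-1 and -0.77 without PBS-2. Cpt1b (chr15:89416405-89425863) had 6.36 FPKM in ATO-1, 17.5 in ATO-2, 0.29 in PBS-1 and 0.79 in PBS-2. These values rested on 389, 902, 17 and 48 counts. Both ATO sarcomas lay above both PBS sarcomas without overlap, and here ATO-1 also stood apart. On TMM-normalized CPM, Cpt1b in ATO-1 was 12.9-fold and in ATO-2 43.6-fold the mean of the PBS sarcomas. For Cpt1b the log2 fold change came to 4.81 (SE 0.953, edgeR adjusted p = 0.570), the largest of the 10 genes, and 3.69 without ATO-2. Without PBS-1 it was 4.27, below Ppara at 4.84 and Acadm at 4.59.

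Within each sarcoma, the muscle form therefore made up a different part of the CPT1 transcripts. Cpt1b was 29.9% of the summed Cpt1a and Cpt1b FPKM in ATO-1 and 61.4% in ATO-2. In the PBS sarcomas it was 1.09% in PBS-1 and 5.10% in PBS-2. Cpt1b exceeded Cpt1a in ATO-2 alone, and the groups did not overlap in this share. A 2 against 2 comparison of such a share cannot give an exact two-sided permutation p below 0.333, so none was tested.

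Downstream of CPT1, Cpt2 (chr4:107903981-107923610) had 13.7 FPKM in ATO-1, 113 in ATO-2, 10.5 in PBS-1 and 9.80 in PBS-2. Slc25a20 (chr9:108662088-108684641), the carnitine-acylcarnitine carrier, had 11.1 FPKM in ATO-1, 67.8 in ATO-2, 7.26 in PBS-1 and 8.52 in PBS-2. In both genes ATO-2 was far above the rest and ATO-1 only slightly above the PBS sarcomas, with no overlap. On TMM-normalized CPM the ratio of ATO-1 to the PBS mean was 1.48 for Cpt2 and 1.54 for Slc25a20, and that of ATO-2 was 14.95 and 11.5. The log2 fold change of Cpt2 was 3.04 (SE 1.14, edgeR adjusted p = 0.583) and 0.57 without ATO-2. For Slc25a20 it was 2.71 (SE 1.02, edgeR adjusted p = 0.584) and 0.63 without ATO-2. Cpt1a and Cpt2 differed in their order over the sarcomas, and the ratio of Cpt1a to Cpt2 FPKM was 2.51 in PBS-1, 1.499 in PBS-2, 1.09 in ATO-1 and 0.0977 in ATO-2. With Cpt1b added to Cpt1a, this ratio was 2.54 in PBS-1, 1.58 in PBS-2, 1.55 in ATO-1 and 0.253 in ATO-2. Only ATO-2 had more Cpt2 than both CPT1 forms together.

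Of the acyl-CoA dehydrogenases, Acadl (chr1:66830839-66863277), which acts on long chains, had 119.9 FPKM in ATO-1, 670.2 in ATO-2, 32.2 in PBS-1 and 43.9 in PBS-2. Acadl was the most abundant of the 10 genes in each of the 4 sarcomas. Among the genes tested, it ranked 36 by FPKM in ATO-2, 258 in ATO-1, 1102 in PBS-2 and 1489 in PBS-1. Both ATO sarcomas were above both PBS sarcomas, ATO-1 3.45-fold and ATO-2 23.7-fold over the PBS mean on TMM-normalized CPM. For Acadl the log2 fold change came to 3.76 (SE 1.10, edgeR adjusted p = 0.570) and 1.79 without ATO-2.

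Acadvl (chr11:70010183-70015411), the very long chain enzyme of the inner membrane, had 46.1 FPKM in ATO-1, 349 in ATO-2, 21.04 in PBS-1 and 23.0 in PBS-2. The PBS sarcomas were close together, at 54.0 ± 2.88 CPM (SD, n = 2) after TMM normalization, against 634 ± 723 CPM (SD, n = 2) in the ATO sarcomas. Acadm (chr3:153922357-153944632), for medium chains, had 39.2 FPKM in ATO-1, 290.2 in ATO-2, 19.9 in PBS-1 and 9.03 in PBS-2. Acadm differed more between the PBS sarcomas than Acadvl, at 51.8 ± 28.1 CPM (SD, n = 2), yet both stayed below both ATO sarcomas. The log2 fold change was 3.56 for Acadvl (SE 1.17, edgeR adjusted p = 0.570) and 3.89 for Acadm (SE 1.26, edgeR adjusted p = 0.570). Without ATO-2 it was 1.20 for Acadvl and 1.56 for Acadm. Acadl made up 58.4% of the summed FPKM of the 3 dehydrogenases in ATO-1, 51.2% in ATO-2, 44.0% in PBS-1 and 57.8% in PBS-2. Acadl over Acadm FPKM was 3.06 in ATO-1, 2.31 in ATO-2, 1.61 in PBS-1 and 4.86 in PBS-2. Both quantities overlapped between the groups, and the PBS sarcomas held the lowest and the highest Acadl over Acadm.

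Hadha and Hadhb encode the alpha and beta subunits of the trifunctional protein, which assemble in 1 complex, and the genes lie head to head on chromosome 5. Their outermost starts are 86 bases apart in GENCODE M21 and their RefSeq starts 273 bases, Hadha (chr5:30118304-30155162) on the minus strand and Hadhb (chr5:30155248-30184593) on the plus strand. Hadha had 24.5 FPKM in ATO-1, 157 in ATO-2, 21.01 in PBS-1 and 19.7 in PBS-2. Hadhb had 20.0 FPKM in ATO-1, 264 in ATO-2, 9.98 in PBS-1 and 10.8 in PBS-2. Neither gene overlapped between the groups, but for Hadha ATO-1 stood only 1.31-fold over the PBS mean on TMM-normalized CPM, the smallest such ratio among the 8 genes without overlap. The ratio of ATO-2 to the PBS mean was 10.3 for Hadha and 34.1 for Hadhb. The log2 fold change was 2.54 for Hadha (SE 1.09, edgeR adjusted p = 0.597) and 4.18 for Hadhb (SE 1.44, edgeR adjusted p = 0.570). Without ATO-2 these were 0.40 and 1.08.

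The subunit genes did not keep a fixed ratio. Hadhb over Hadha FPKM was 0.475 in PBS-1 and 0.547 in PBS-2. It was 0.818 in ATO-1 and 1.69 in ATO-2. The PBS values were close together, both ATO values lay above them, and in ATO-2 alone was the beta subunit the more abundant transcript.

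Ppara (chr15:85734983-85802819) was the least abundant of the 10 genes in 3 of the 4 sarcomas. It had 0.59 FPKM in ATO-1, 2.70 in ATO-2, 0.85 in PBS-1 and 0.07 in PBS-2, from 41, 158, 57 and 5 counts. ATO-2 was highest, but ATO-1 lay between the PBS sarcomas, so the groups overlapped. For Ppara the log2 fold change came to 2.19 (SE 1.47, edgeR adjusted p = 0.709), 0.47 without ATO-2, 4.84 without PBS-1 and 1.31 without PBS-2. Ppara and the enzymes other than Cpt1a thus had their highest level in ATO-2, and 8 of the 10, all but Cpt1a and Ppara, were above both PBS sarcomas in ATO-1 as well.

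The median log2 fold change of the 10 genes was 3.30, against -0.016 for all genes tested. It was 0.86 without ATO-2 and 4.14 without ATO-1. In the fit of all 4 sarcomas 9 of the 10 genes had the higher fitted level in ATO, against 49.2% of all genes, and without either ATO sarcoma the number was 9 again. From single pairs of sarcomas, on log2 of CPM plus 1, the median ratio of the 10 genes was 0.90 for ATO-1 over PBS-1 and 1.07 for ATO-1 over PBS-2. It was 4.02 for ATO-2 over PBS-1 and 4.11 for ATO-2 over PBS-2. The ATO sarcomas differed from each other by more, a median of 2.93, than ATO-1 did from either PBS sarcoma. Between the PBS sarcomas 5 of the 10 genes were higher in PBS-2, and the signed median was -0.01, which does not measure how far single genes differed.

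With edgeR's quasi-likelihood test and Benjamini-Hochberg adjustment over all genes, 0 of the 10 genes passed an adjusted p of 0.05, as did 0% of all genes, the smallest adjusted p being 0.570. An unadjusted p under 0.05 with the higher level in ATO was reached by 7 of the 10 genes and 5.44% of all genes. DESeq2 called 5 of the 10 (Cpt1b, Acadvl, Acadl, Acadm and Hadhb) higher at an adjusted p under 0.05, and 3.26% of all genes. The edgeR test without a filter on low counts called the same 5 higher, and 1.47% of its 30859 genes. Within a group, the sarcomas had a common biological coefficient of variation of 62.5%. These p-values set each group difference against a spread estimated over genes from these samples, with 2 sarcomas a group. They cannot tell treatment from kind of sarcoma.

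**Figure D2:**
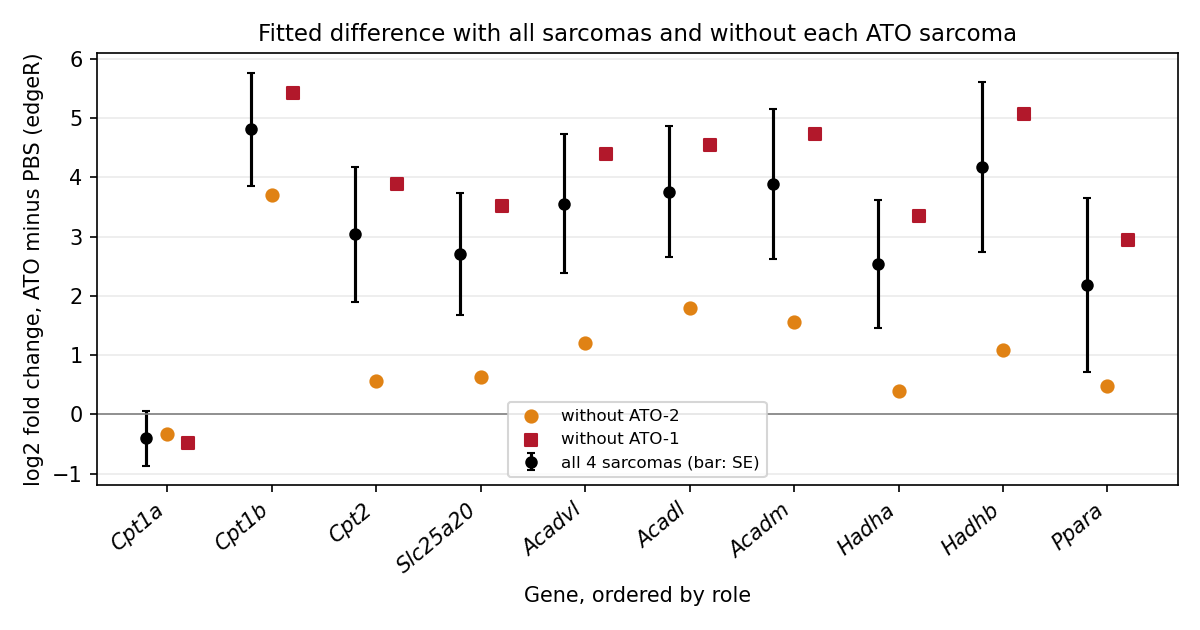
Log2 fold change of each gene, ATO minus PBS, from edgeR, with all 4 sarcomas (black, bar 1 SE), without ATO-2 (orange) and without ATO-1 (red). Without ATO-2 the median is 0.86, Cpt1b stays highest at 3.69, and Cpt1a is below 0 in each of the 3 fits.

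Summed markers of fat and skeletal muscle were higher in both ATO sarcomas than in both PBS sarcomas, as 8 of the 10 genes were. Fast muscle markers were highest in ATO-1, and the sums of the other fat and skeletal muscle lists in ATO-2. The labels of all 4 samples also describe growth in culture with insulin, dexamethasone and isobutylmethylxanthine, and the study's methods describe tumors without such a culture. Brown adipocyte markers summed to 3020 FPKM in ATO-2, 65.4 in ATO-1, 37.1 in PBS-1 and 3.19 in PBS-2. The most abundant, the uncoupling protein gene Ucp1, had 1485 FPKM in ATO-2 and at most 0.10 in the other sarcomas. Of the 6 markers tested, 4 were above in both ATO sarcomas, against 19.7% of all genes on TMM-normalized CPM. Of these 4 markers, Cidea, Elovl3 and Cox8b passed the filter on low counts only through the ATO sarcomas, so their direction is not read as a result. Ucp1 was not tested, and its 1 count in ATO-1 lay below 2 in PBS-1 and 3 in PBS-2. Cidea and Elovl3 had 0 counts in both PBS sarcomas, Cox8b in PBS-1 and Zic1 in PBS-2, and most of the PBS-1 sum was Dio2 with 32.7 FPKM. Dio2 and Prdm16 were highest in PBS-1, and Cox8b had 50.7 FPKM in ATO-1. The summed level was thus highest in ATO-2, the sarcoma with the highest level of 9 members. White adipocyte markers summed to 329 FPKM in ATO-1, 1367 in ATO-2, 2.94 in PBS-1 and 10.2 in PBS-2, with 9 of 9 above in both ATO sarcomas and Cfd most abundant. Of these, Plin1, Lep, Retn and Pck1 had 0 counts in PBS-1 and Lep in PBS-2, where 0 counts allow up to 0.172 and 0.167 CPM. Adipoq, Plin1, Cidec, Lep, Cfd and Pck1 passed the filter on low counts only through the ATO sarcomas, so their direction is not read as a result. Fast skeletal muscle markers summed to 16100 FPKM in ATO-1, 1150 in ATO-2, 9.27 in PBS-1 and 145 in PBS-2, 12 of 12 above in both ATO sarcomas and 0 of 12 highest in ATO-2, with Acta1 most abundant and none at 0. Slow muscle markers summed to 16.2, 68.3, 1.15 and 10.8 in the same order, with 4 of 5 above, Tnnt1 most abundant and Myh7 at 0 in PBS-1. Fast muscle markers, and Plin4 and Lipe of the white adipocyte list, thus separated the groups without overlap, as Cpt1b did. Tnni1 of the slow muscle list and Dio2 and Prdm16 of the brown adipocyte list overlapped. The part of fat and muscle cells in the levels of the 10 genes was not tested.

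Markers of heart and liver, other organs known for this pathway, were also summed. The cardiomyocyte list summed to 4.99 FPKM in ATO-1, 2.59 in ATO-2, 1.65 in PBS-1 and 3.29 in PBS-2, with 0 of 2 tested markers above, Tnni3 most abundant, and Myh6, Nppa or Myl7 at 0 in some sarcomas. The hepatocyte list summed to 20.9 FPKM in ATO-1, 13.6 in ATO-2, 0.68 in PBS-1 and 0.28 in PBS-2. Ttr was at 0 in all 4 sarcomas and Alb at most 0.54 FPKM. Cyp2e1, the 1 marker tested, was most abundant, with 779 counts in ATO-1, 444 in ATO-2, 0 in PBS-1 and 4 in PBS-2. It passed the filter on low counts only through the ATO sarcomas, so its direction is not read as a result. Neither sum was highest in ATO-2, but Tnni3 was, with 2.19 FPKM there and at most 1.78 in the other sarcomas. Tnnt2 was highest in ATO-1, with 3.84 FPKM. The part of heart and liver cells in the levels of the 10 genes was not tested.

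Mitochondrially encoded genes took 14.7% of the counts in ATO-2 (Wilson 95% interval 14.7% to 14.8%), 2.59% in ATO-1 (2.58% to 2.59%), 1.98% in PBS-1 (1.97% to 1.98%) and 1.99% in PBS-2 (1.98% to 2.00%). Of 11 such genes tested, 11 were highest in ATO-2, against 25.5% of all genes, mt-Co1 being the most abundant. Both ATO sarcomas lay above both PBS sarcomas in 9 of the 11 on TMM-normalized CPM and in 7 on FPKM. The shares of all genes were 19.7% and 12.8%. The summed FPKM of the 10 fatty acid oxidation genes was highest in the library with the largest mitochondrial share. To set them against mitochondrial content, the summed FPKM of 7 core genes (all but Cpt1a, Cpt1b and Ppara) was divided by that of Cs, which encodes citrate synthase. This ratio was 5.30 in ATO-1, 9.05 in ATO-2, 4.33 in PBS-1 and 4.19 in PBS-2. The ratio varied less than the summed level of the 10 genes, but ATO-2 was again highest and both ATO sarcomas lay above both PBS sarcomas. Of this ratio, Acadl alone made up 2.31 in ATO-1, 3.18 in ATO-2, 1.14 in PBS-1 and 1.47 in PBS-2. ATO-1 and PBS-1 differed more in this part than in the whole ratio, so their separation rested on Acadl. With the median of the core genes over the median of 8 nuclear genes of mitochondrial content, the values were 0.468 in ATO-1, 2.10 in ATO-2, 0.736 in PBS-1 and 0.321 in PBS-2. The sum over the sum of those 8 genes was 0.461, 1.31, 0.270 and 0.354 in the same order, and the median over Cs 0.473, 1.25, 0.708 and 0.362. With sums both ATO sarcomas lay above both PBS sarcomas on either reference, and with medians ATO-1 lay between the PBS sarcomas on either, so the separation depended on the summary of the core genes. ATO-2 was highest in all 4 ratios of the core genes.

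**Figure D3:**
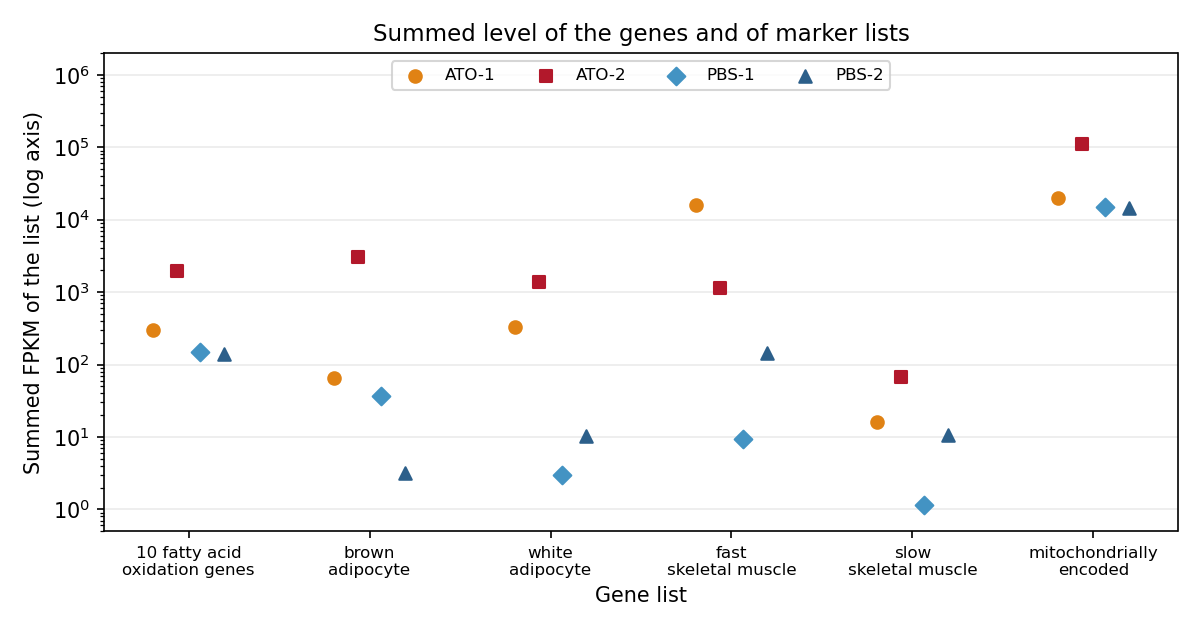
Summed FPKM on a log axis of the 10 fatty acid oxidation genes, of 4 marker lists and of the mitochondrially encoded genes, with 1 point for each sarcoma. Brown adipocyte markers reach 3020 in ATO-2 alone, fast skeletal muscle markers are highest in ATO-1 with 16100, and both PBS sarcomas lie lowest for the 10 genes.

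The rest of the pathway was set beside the 10 genes, and in every list 0 genes passed the adjusted threshold in edgeR. Genes without overlap were counted on TMM-normalized CPM. On FPKM, those above in both ATO sarcomas were 11 other beta oxidation genes, 5 peroxisomal genes and 8 regulators. On the same scale they were 4 PPAR target genes and 5 nuclear genes of mitochondrial content. As a reference for every list, 49.2% of all genes tested had the higher fitted level in ATO and 25.5% were highest in ATO-2. Both ATO sarcomas lay above both PBS sarcomas in 19.7% of all genes on TMM-normalized CPM and in 12.8% on FPKM. On TMM-normalized CPM both lay below in 20.2%. Of 15 other mitochondrial beta oxidation genes, 15 had the higher fitted level in ATO, 12 without overlap, and 15 were highest in ATO-2, with a median log2 fold change of 2.95 (0.83 without ATO-2). The thiolase Acaa2, both the most abundant and the one with the largest log2 fold change (4.01), had 58.8 FPKM in ATO-1, 638 in ATO-2, 36.03 in PBS-1 and 20.96 in PBS-2, and the smallest was that of Acad9, 0.52. All of this list, like 9 of the 10 genes, was thus highest in ATO-2. Of 13 uptake and activation genes, 11 were higher and 2 lower, 7 without overlap, with a median of 1.81 (1.57 without ATO-2). Fabp4, the most abundant, had a log2 fold change of 4.0, Fabp3, a fatty acid carrier of muscle, 6.55, and Slc27a4 -0.35. In the carnitine and malonyl-CoA list 4 of 5 were higher, all 4 without overlap, with a median of 2.99 (2.34 without ATO-2). Acacb, which makes the malonyl-CoA that inhibits CPT1, had 33.4 FPKM in ATO-1, 80.8 in ATO-2, 0.83 in PBS-1 and 1.79 in PBS-2, a log2 fold change of 5.79. Crat, the most abundant, was at 2.99 and Cpt1c, the brain form, at -0.32. Acacb thus had its high values in the same sarcomas as Cpt1b. Mlycd of the same list did too, with 22.6 FPKM in ATO-1, 19.45 in ATO-2, 4.46 in PBS-1 and 4.93 in PBS-2.

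Of 11 peroxisomal genes tested out of 12, 11 were higher, 6 without overlap, with a median of 1.48 (0.43 without ATO-2), from 0.07 for Acox3 to 2.72 for Pex11a. Ketone body genes were mixed, 3 of 5 higher, with a median of 0.29 (-0.23 without ATO-2), Acat1 at 2.71 and Bdh1 at -1.48. Nuclear genes of mitochondrial content, 7 of 8 higher and 6 without overlap, had a median of 1.44 (0.64 without ATO-2), with Cs at 2.55, Atp5a1, the most abundant, at 1.95 and Tomm20 at -0.25. The mitochondrially encoded median was 2.56 (0.58 without ATO-2), with mt-Nd2 at 3.51, mt-Co1 at 2.13 and mt-Co3 at 2.02. The median of the 10 genes, 3.30, was above that of each of the 9 pathway lists with all 4 sarcomas, and without ATO-2 the medians of the uptake, the carnitine and the regulator lists were above it.

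Of 14 regulators, 12 were higher and 2 lower, 10 without overlap above and 2 below, and 7 were highest in ATO-2, with a median of 1.80 (1.10 without ATO-2). Rxrg, counted among the 10, passed the filter on low counts only through the ATO sarcomas, so its direction is not read as a result. Prkaa2, a catalytic subunit of the energy sensor AMPK, had the largest log2 fold change (5.46) and its highest level in ATO-1, with 20.6 FPKM against 3.0 in ATO-2, 0.09 in PBS-1 and 0.52 in PBS-2. Ppard, a receptor related to Ppara, had the lowest, -0.76, and the Ppara partner Rxra, the most abundant, 0.55. Of 8 other PPAR target genes tested out of 11, 6 were higher and 5 without overlap, with a median of 1.45 (0.69 without ATO-2). Of these 8, 2 were highest in ATO-2, near the 25.5% of all genes. Pdk4, a brake on glucose oxidation, had 642 FPKM in ATO-1, 99.6 in ATO-2, 5.79 in PBS-1 and 4.44 in PBS-2. Ucp3, a muscle uncoupling protein, had 37.3 FPKM in ATO-1, 21.3 in ATO-2, 0 in PBS-1 and 0.12 in PBS-2. Ucp3 passed the filter on low counts only through the ATO sarcomas. The log2 fold change of Vnn1 was -1.51. Both Pdk4 and Ucp3 were highest in ATO-1, where the fast muscle markers were, and so did not share the order of the enzymes.

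The genes nearest in profile were found by Euclidean distance over the 4 sarcomas, on centred log2 of CPM plus 1. Nearest to the mean of the 10 genes were S100a1 (0.115), Pbld1 (0.127), Hibch (0.152) and Acat1 (0.188). Pbld1 had 0.28 FPKM in ATO-1, 2.62 in ATO-2, 0.01 in PBS-1 and 0 in PBS-2, so its distance rests on values near the floor. Nearest to Cpt1b were Kng2 (0.170), Acsl1 (0.390), Pnpla2 (0.408), Acvr1c (0.550) and Orm1 (0.567). Acvr1c was also near the floor, with 0.01 FPKM in PBS-1 and 0.08 in PBS-2. Acsl1, which activates long-chain fatty acids, had 23.4 FPKM in ATO-1, 77.3 in ATO-2, 2.66 in PBS-1 and 3.57 in PBS-2. Nearest to Cpt1a were Zfp119a (0.0071), Gm16001 (0.0519), Npm3 (0.0538), Psmc3ip (0.0595) and Ttc21b (0.0748). The 3 lists had no gene in common, so the mean of the group, Cpt1b and Cpt1a had different neighbours.

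Overlapping genes limit some values, since no source used here says whether counting took account of strand. The readthrough gene Gm44502 spans all 9459 bases of Cpt1b and had 2 or 3 counts in each sarcoma, against 17 to 902 for Cpt1b. Dvl2 overlaps Acadvl by 2119 bases on the other strand, and its log2 fold change was -0.92. Garem2 overlaps Hadha by 75 bases, with a log2 fold change of -2.58. The processed pseudogene Gm15793 lies within Acadl and had 3 to 7 counts. Mir324 lies within Acadvl, Mir1960 within Hadhb and Gm27934 within Acadl, each with 0 counts in all 4 sarcomas. Dvl2 and Garem2 were both highest in PBS-1, in contrast to Acadvl and Hadha.

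Promoter sequences of RefSeq (GRCm38.p6), from 250 bases before to 50 after a start, matched 9 of the 10 members. On both strands, the GC box (GGGCGG) was found in 7 of the 9 (Acadl, Cpt1a, Cpt2, Hadha, Hadhb, Ppara and Slc25a20) and in 35.7% of the 32851 windows of the table. The hexamer bound by many nuclear receptors (AGGTCA) was in 3 of the 9 (Acadm, Acadvl and Cpt1a) and in 16.3% of all windows. The CCAAT box (CCAAT) was in Cpt1a alone of the 9 and in 37.4% of all, and the TATA box (TATAAA) in 0 of the 9 and in 13.6%. A direct repeat of the hexamer spaced by 1 base (AGGTCANAGGTCA) was in 0 of the 9 and in 0.0396% of all windows, and its looser form (AGGNCANAGGNCA) in 0 of the 9 and in 0.381%. Letters not found in these windows say nothing of sites elsewhere. The windows of 4 members are printed 5′ to 3′ to set the most abundant gene (Acadl), the gene that was not highest in ATO-2 (Cpt1a), the later shuttle enzyme (Cpt2) and a subunit gene of the head-to-head pair (Hadhb) side by side. Capitals mark the GC box, the hexamer and the CCAAT box on either strand, and these do not overlap. The Hadha window shares 228 bases with that of Hadhb on the opposite strand, and the RefSeq start of Hadha lies outside the Hadhb window.
Acadl chr1:66863260-66863559 (-): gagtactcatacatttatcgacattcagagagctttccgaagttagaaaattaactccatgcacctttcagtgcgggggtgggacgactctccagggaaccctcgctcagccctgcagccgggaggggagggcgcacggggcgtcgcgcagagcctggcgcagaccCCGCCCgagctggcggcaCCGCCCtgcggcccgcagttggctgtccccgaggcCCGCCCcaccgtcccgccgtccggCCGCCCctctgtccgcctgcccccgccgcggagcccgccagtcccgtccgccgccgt
Cpt1a chr19:3323051-3323350 (+): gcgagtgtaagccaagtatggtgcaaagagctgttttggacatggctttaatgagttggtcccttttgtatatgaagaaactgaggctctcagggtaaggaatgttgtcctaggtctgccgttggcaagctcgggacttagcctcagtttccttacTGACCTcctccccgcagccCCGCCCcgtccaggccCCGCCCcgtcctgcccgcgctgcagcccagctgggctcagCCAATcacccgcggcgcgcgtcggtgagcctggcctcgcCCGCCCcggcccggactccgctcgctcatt
Cpt2 chr4:107923540-107923839 (-): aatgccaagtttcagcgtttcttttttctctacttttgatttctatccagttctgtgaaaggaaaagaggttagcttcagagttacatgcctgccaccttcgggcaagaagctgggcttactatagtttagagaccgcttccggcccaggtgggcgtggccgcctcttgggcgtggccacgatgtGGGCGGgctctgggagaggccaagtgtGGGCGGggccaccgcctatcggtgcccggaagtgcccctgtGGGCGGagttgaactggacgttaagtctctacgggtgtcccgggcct
Hadhb chr5:30155003-30155302 (+): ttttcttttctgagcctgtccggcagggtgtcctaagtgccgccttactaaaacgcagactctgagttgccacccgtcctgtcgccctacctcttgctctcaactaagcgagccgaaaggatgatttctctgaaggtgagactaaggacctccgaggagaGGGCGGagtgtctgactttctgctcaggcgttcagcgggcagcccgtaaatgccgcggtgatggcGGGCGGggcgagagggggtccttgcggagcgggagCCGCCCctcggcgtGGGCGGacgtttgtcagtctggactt
All 4 windows hold GC boxes, whereas those of Acadm and Acadvl hold none. Like Acadl, Cpt2 and Hadhb, and unlike Cpt1a, both of these genes were highest in ATO-2. The GC content was 70.3% for Acadl, 62.3% for Cpt1a, 57.3% for Cpt2 and 60.7% for Hadhb, as well as 62.3% for Acadm and 50.7% for Acadvl, against a median of 52.7% over all windows. A match is a description of these letters and was not tested for binding.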

How the data were processed

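RNA from 4 sarcomas was compared by the treatment in the labels, ATO (n = 2) against PBS (n = 2). The authors trimmed reads (cutadapt 1.9.1), aligned them (HISAT2 2.0.1) and deposited a table with the raw count per gene. The deposited FPKM is the count divided by exonic size and total count, which was checked on every gene (largest difference 0.005). Positions are from GENCODE M21 (GRCm38) by gene identifier, because only 2.83% of shared genes have the same position in the deposited table. The test was edgeR's quasi-likelihood test (edgeR 4.0.16, R 4.3.3) on genes kept by filterByExpr, at a Benjamini-Hochberg adjusted p of 0.05. It was checked on simulated data with less spread between samples than these. That check therefore does not show how the test performs at the spread of these sarcomas. The TMM factor was 1.01 for ATO-1, 0.822 for ATO-2, 1.09 for PBS-1 and 1.11 for PBS-2. Alternatives were DESeq2 1.42.0, its size factors, other filters, a replicate block, mitochondrially encoded genes left out, limma 3.58.1 on log2(FPKM + 1) and log2(FPKM + 0.1), and each sarcoma left out. Leaving out a sarcoma from the count of genes without overlap was chosen after seeing the data. Summaries used Python 3.11.15.

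The members and the lists were chosen with earlier results of these data known. The genes named are the members, the most abundant gene and those with the largest and smallest log2 fold change of each pathway list, the most abundant marker and markers at 0 of each marker list, overlapping neighbours and the 5 nearest profiles, of which some items are not reported here. Further marker lists (macrophage, endothelial, osteoblast, fibroblast, smooth muscle and erythroid) are given with the other observations.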

Additional observations from a re-analysis of the deposited data

How the results depend on the processing

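Of the fits of single genes under alternatives, 109 kept their direction and their side of the threshold, 10 newly passed it and 1 changed sign. The 1 that changed sign was Cpt1a, from -0.77 without PBS-2 to 0.091 without PBS-1. With DESeq2, 714 genes and 5 of the 10 members were called, and without a filter on low counts 541 genes and 5 members, where edgeR with the filter called 0 and 0. The cause was not tested. Every other alternative, leaving out each sarcoma included, called 0 genes and 0 members. Leaving out each sarcoma in turn gave a median log2 fold change of the members from 0.86 (without ATO-2) to 4.14 (without ATO-1), and from 9 to 10 members with a higher fitted level in ATO. Members without overlap numbered from 8 (without ATO-2 or PBS-2) to 10 (without PBS-1). Of all genes, 34.5% had ATO-1 above both PBS sarcomas, against 19.7% without overlap with all 4 sarcomas. No share of all genes is at hand for leaving out a PBS sarcoma, so those counts of members are not compared.

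With the replicate number as a replicate block, 0 genes and 0 members were called, the median was 2.63 and 1165 genes had an unadjusted p under 0.05, against 1463 without it. The deviations of same-numbered sarcomas had a correlation of 5e-05 over genes. With 2 sarcomas a group, this value cannot tell whether the numbers pair the samples. The limma fits moved the median of all genes to -0.18 and -0.27, with members' medians of 2.18 and 2.24. With 2 sarcomas a group and ATO-2 apart from the rest, the members' median depends on ATO-2 and the direction of Cpt1a on PBS-1. Ppara rests on as few as 5 counts.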

Other observations

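The sums of further cell type lists did not share the order of the summed fatty acid oxidation genes. Endothelial markers summed to 892 FPKM in PBS-2, against 76.1 in ATO-1, 152 in ATO-2 and 106 in PBS-1, with Cdh5 most abundant. Osteoblast markers summed to 488 FPKM in ATO-1, 4.93 in ATO-2, 13.0 in PBS-1 and 6.38 in PBS-2, with Ibsp most abundant and Sp7 at 0 in ATO-2 and PBS-1. Fibroblast markers summed to 3857 FPKM in ATO-1, 785 in ATO-2, 3207 in PBS-1 and 469 in PBS-2, with Col1a1 most abundant. Most of each sum was Col1a1 and Col1a2. Of these 5 markers, Dcn and Lum were highest in ATO-2, with 143 and 137 FPKM. Dcn alone had both ATO sarcomas above both PBS sarcomas, against 19.7% of all genes on TMM-normalized CPM. Erythroid markers summed to 9674, 1000, 268 and 17810 in the same order, with Hbb-bs most abundant. The ATO sarcomas thus differed widely from each other in the osteoblast, fibroblast and erythroid sums, and less in the endothelial one. Macrophage markers were highest in ATO-2, as 9 of the 10 genes were, at 5485 FPKM against 882 in ATO-1, 1828 in PBS-1 and 839 in PBS-2, but nearly all of that was Lyz2 with 5115. On TMM-normalized CPM 1 of 5 was above in both ATO sarcomas, and on FPKM 0 of 5, against 19.7% and 12.8% of all genes. Smooth muscle markers, with Acta2 most abundant, summed to 22.7 FPKM in ATO-1, 194 in ATO-2, 257 in PBS-1 and 75.4 in PBS-2, highest in PBS-1.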
